A study of Bos taurus with 24 samples.

Results

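The mitochondrial ribosomal proteins build the ribosome inside the mitochondrion. They are encoded by nuclear genes named MRPL for the large and MRPS for the small subunit, made in the cytosol and imported, and they assemble with ribosomal RNA encoded by mitochondrial DNA. The finished ribosome sits at the inner membrane and makes the few subunits of the respiratory complexes and of ATP synthase that mitochondrial DNA still encodes, whereas the other subunits of those complexes are nuclear and are made in the cytosol. In adipose tissue, mitochondria supply energy and precursors for the synthesis and turnover of stored fat.

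The genes were taken as rows of the value table with a single gene symbol of the form MRPL or MRPS followed by a number, and 77 of 18444 genes met this rule, 48 of the large and 29 of the small subunit. A gene with more than 1 row was read from its brightest row, and 2 genes, MRPL23 and MRPS17, had 2 rows. MRPL12 was left out because its only row also carries the symbol SLC25A10. All 77 genes were tested with no filter on low signal. Of the symbols taken by the rule, MRPS36 is known from other mammals as a component of the oxoglutarate dehydrogenase complex of the citric acid cycle rather than of the ribosome, and MRPS18A and MRPS30 lie in the large subunit of mammalian ribosomes despite their S. All 3 were kept under their symbols.

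The samples were subcutaneous adipose tissue of crossbred cows, not pregnant and 5 years old, biopsied over the rump between hooks and pins. Of 121 cows on trial, the 6 with the highest and the 6 with the lowest gain during ad libitum feeding were used, and each cow gave 2 biopsies. The ad libitum biopsy was taken at day 49 of free access to feed, from the right side, in high gain cows (n = 6) and in low gain cows (n = 6). The restriction biopsy came from the left side of these same cows at day 105 of a diet set to 120 kcal metabolizable energy per kg metabolic body weight. Restriction always came before ad libitum feeding, so diet, body side and period cannot be told apart. The gain groups were chosen by gain during the ad libitum period itself. The paper reports that the high gain cows also ate more during it, so gain and feed intake cannot be told apart. Each of the 24 RNA samples was read on its own Bovine 1.1ST array, and the cows are named H1 to H6 (high gain) and L1 to L6 (low gain).

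The deposited values are log2 signals. The median signal of an array lay between 7.83 and 7.94 at ad libitum feeding and between 8.26 and 8.34 at restriction, so that on the deposited scale the typical cluster, the array's unit for a gene, was lower by 0.43 at ad libitum feeding. Unless stated otherwise, values are therefore log2 signal minus the median of the array, and a change is ad libitum minus restriction. The 3703 clusters as bright as the middle of the ribosomal protein genes (9.13 to 10.62) had a median change of 0.02 on this scale, close to 0. As a look at the tissue label, adipocyte markers had a mean of 7.03 to 8.66 above the array median on the 24 arrays, which describes the brightness of their probes and does not measure the share of adipocytes. In whole tissue, fewer cells of a type and less RNA per cell cannot be told apart.

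Ad libitum feeding went with higher signal of most mitochondrial ribosomal protein genes. Over all 12 cows, 54 of 77 rose, 2 fell and 21 did not pass the test, against 27.1% of all clusters that rose and 24.4% that fell (limma paired by cow, adjusted p under 0.05 over 24997 clusters). The median change was 0.53, with the middle of the genes between 0.25 and 0.95 and the extremes at -0.42 and 2.29, whereas the median of all clusters was 0. The change exceeded 1 on the log2 scale in 17 of the genes that rose with centred arrays. The share of all clusters that did so is not given here. On the deposited scale only MRPS36 (3.63-fold), MRPL14 (2.16-fold) and MRPL21 (2.15-fold) rose by a fold over 2. With centred arrays 36 genes were higher at ad libitum feeding in 12 of 12 cows, against 11.1% of all clusters, and each cow had between 58 and 69 of the 77 genes higher, against 49.1% to 53.8% of all clusters. The median change within a cow ran between 0.40 (H5 and L4) and 0.80 (L6).

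On the deposited scale, which keeps the difference of the array medians, 30 genes rose and 17 fell over all cows, with a median change of 0.10, against 8.91% of all clusters that rose and 65.2% that fell. The change was positive in 45 of 77 genes there and in 68 with centred arrays. There, 14 genes were higher in 12 of 12 cows, against 2.9% of all clusters, and each cow had between 30 (L4) and 56 (H4) genes higher, against 22.5% to 27.1% of all clusters. The 30 genes that rose there all rose with centred arrays too, and none of the 54 genes that rose with centred arrays fell on the deposited scale. The 17 comprised the 2 genes that fell with centred arrays and 15 that did not pass the test there. Mean RNA integrity was also given as higher for the ad libitum samples, and its part in these changes was not tested.

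**Figure D1:**
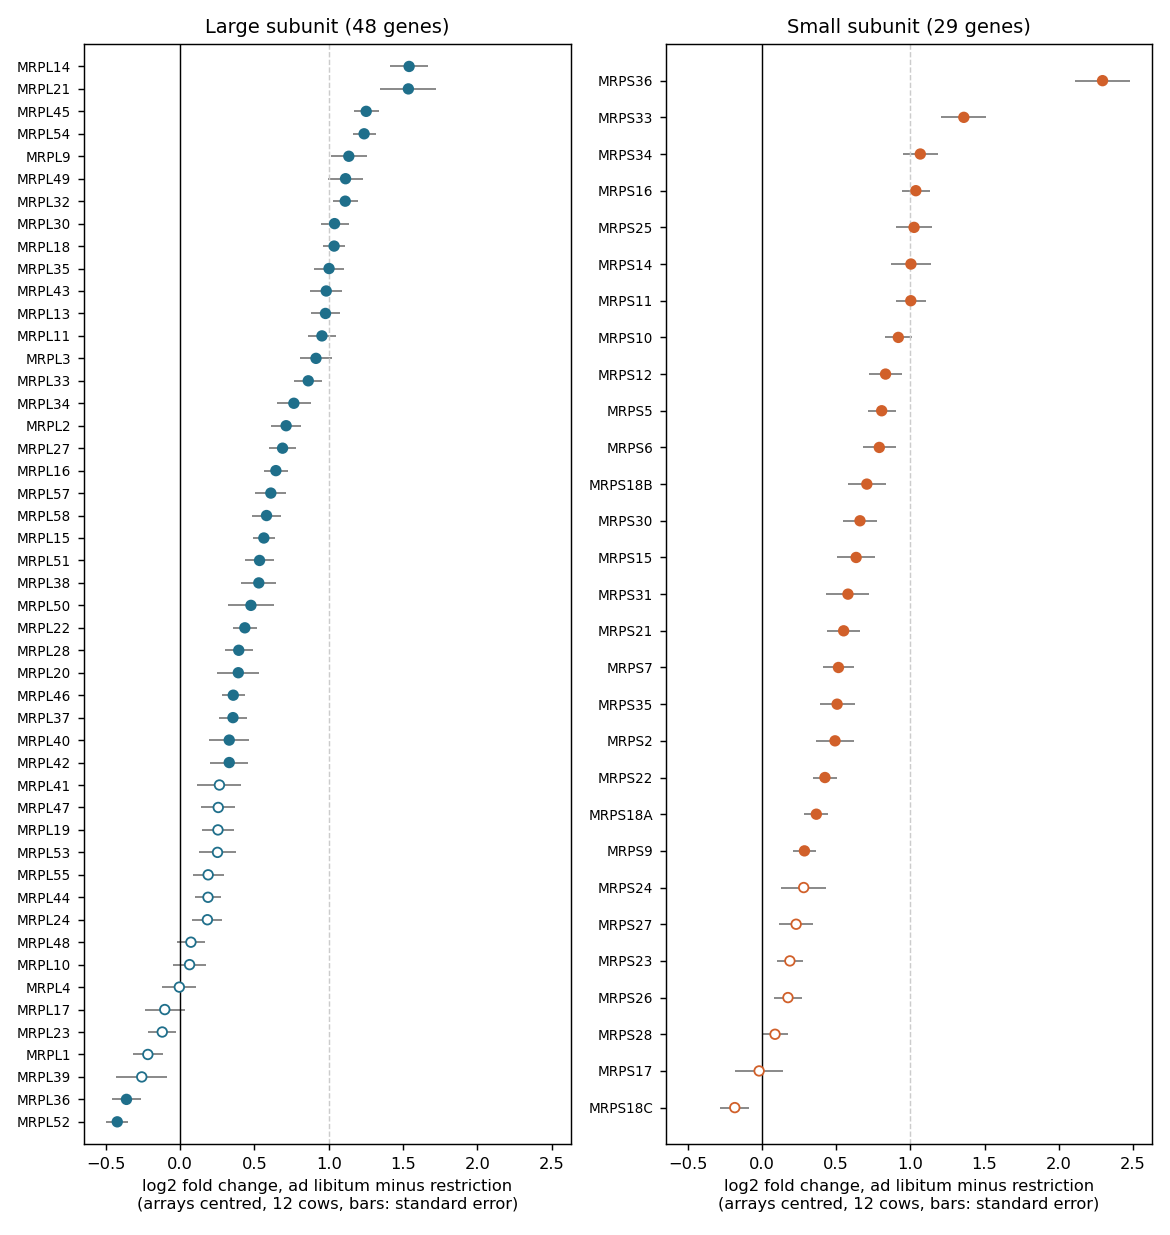
Log2 change of each of the 77 genes, ad libitum minus restriction over 12 cows with arrays centred, large subunit left and small subunit right, with bars for the standard error and filled points for genes that passed the test. Most points lie right of 0, MRPS36 reaches 2.29, and MRPL52 and MRPL36 are the filled points left of 0.

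Averaged over the 77 genes of an array, signal lay between 1.65 and 2.47 (median 2.05) above the array median in high gain cows at ad libitum feeding and between 1.22 and 1.71 (median 1.41) at restriction. In low gain cows it lay between 1.88 and 2.26 (median 2.05) at ad libitum feeding and between 1.24 and 1.67 (median 1.52) at restriction. The ranges overlapped slightly in high gain cows, where H2 was highest under both diets and H5 lowest under both, and they were separate in low gain cows. With centred arrays the average rose within every cow, by 0.34 (L4) to 0.76 (H2). On the deposited scale it was lower at ad libitum feeding in L1 (9.739 against 9.742), L3 (9.919 against 9.932) and L4 (9.863 against 10.011). It was higher there in the other cows.

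The large subunit averaged 1.85 ± 0.25 at ad libitum feeding and 1.29 ± 0.16 at restriction in high gain cows, and 1.88 ± 0.14 and 1.37 ± 0.16 at the same diets in low gain cows (SD, n = 6 each). The small subunit averaged 2.32 ± 0.34 at ad libitum feeding and 1.66 ± 0.17 at restriction in high gain cows, and 2.36 ± 0.12 and 1.73 ± 0.17 at the same diets in low gain cows. With centred arrays both subunits thus moved the same way in both gain groups. On the deposited scale the median change in high gain cows was 0.11 for the large subunit, where 15 genes rose and 8 fell. For the small subunit it was 0.23 in these cows, where 8 rose and 3 fell. In low gain cows the median was 0.01 for the large subunit, where 15 genes rose and 8 fell. For the small subunit it was 0.08 there, where 9 rose and 1 fell. Of all clusters 7.36% rose and 53.1% fell in high gain cows on this scale, and 6.28% and 54.3% in low gain cows.

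**Figure D2:**
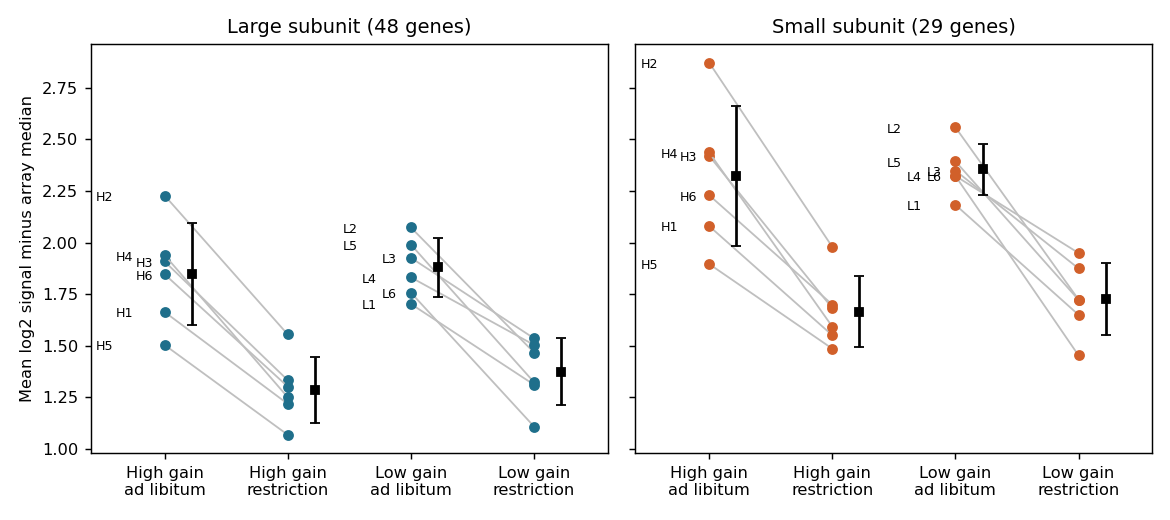
Mean log2 signal minus array median over the large subunit genes (left) and the small subunit genes (right) in each biopsy, with lines joining the biopsies of a cow and black squares with bars for the group mean and SD (n = 6). In both panels, with arrays centred, all 12 cows are higher at ad libitum feeding.

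In the large subunit, 32 of 48 genes rose, 2 fell and 14 did not pass the test over all cows, with a median change of 0.50 (19 rose and 12 fell on the deposited scale, median 0.07). In the small subunit, 22 of 29 rose, none fell and 7 did not pass, with a median of 0.58 (11 rose and 5 fell on the deposited scale, median 0.15). The shares of all clusters were 27.1% rising and 24.4% falling, and 8.91% and 65.2% on the deposited scale. The median change of the large subunit minus that of the small subunit was -0.08 over all cows, and within single cows it ran from -0.26 to 0.24 with an SD of 0.14. Taken on the means of the subunits instead, the change of the large minus that of the small subunit was -0.11 ± 0.09 (SD, n = 12 cows), from -0.23 to 0.02, and was negative in 10 of 12 cows. The small subunit mean here includes MRPS36, which changed by 2.29 and is not known as a ribosomal protein. The difference of means was not taken without it. No test was made of either difference. With MRPS18A and MRPS30 counted in the large subunit and MRPS36 left out, the difference of medians was -0.06, beside -0.08.

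MRPL14, a protein at the face of the large subunit where the assembly factor MALSU1 binds, had the largest change of that subunit. In high gain cows its signal was 2.29, 3.58 and 4.27 (lowest, median and highest) at ad libitum feeding and 1.46, 1.82 and 2.36 at restriction, and in low gain cows it was 3.08, 3.63 and 3.79 at ad libitum feeding and 1.83, 1.99 and 2.53 at restriction. The diets were separate in low gain cows and overlapped slightly in high gain cows. Over all cows the change was 1.54 ± 0.13 (SE), a 2.91-fold higher signal, adjusted p = 2.34e-07, and it was positive in 12 of 12 cows.

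MRPL21, the counterpart of bacterial L21, changed by nearly the same amount with more spread. Its signal in high gain cows was 4.14, 4.58 and 5.88 at ad libitum feeding and 2.34, 2.99 and 3.32 at restriction, without overlap. In low gain cows it was 3.33, 4.55 and 4.83 at ad libitum feeding and 2.70, 3.16 and 3.64 at restriction, and L1, lowest at ad libitum feeding, lay within the restriction range. The change over all cows was 1.54 ± 0.19, adjusted p = 1.02e-05, and single cows ranged from 0.48 (L1) to 2.66 (H2 and H4).

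MRPL45 and MRPL54 had the smallest standard errors among the 6 largest changes. MRPL45 lies at the exit of the peptide tunnel and ties the ribosome to the inner membrane. Its signal was 1.51, 1.87 and 2.04 in high gain cows at ad libitum feeding and 0.31, 0.63 and 1.02 at restriction, and 1.63, 1.95 and 2.20 in low gain cows at ad libitum feeding and 0.38, 0.60 and 0.82 at restriction. No ad libitum value reached into the restriction range in either gain group. The change was 1.25 ± 0.08, adjusted p = 3.99e-08. MRPL54, a protein particular to mitochondrial ribosomes, changed by 1.24 ± 0.08 with the smallest adjusted p among the 77 genes, 2.73e-08, also without overlap in either gain group.

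Other large subunit genes rose by less. MRPL3, which has a bacterial counterpart and lies near the catalytic core, rose by 0.91 ± 0.10, from probes among the 3 brightest of the set. MRPL58, known as ICT1 and able to release peptides from stalled ribosomes, rose by 0.58 ± 0.09 (adjusted p = 1.37e-04), a call that was lost on the deposited scale (0.15, adjusted p = 0.165). MRPL15, whose probes had the lowest signal of all 77 genes at a mean of 4.62 on the deposited log2 scale, rose by 0.56 ± 0.07 with centred arrays, but on the deposited scale the change was 0.13 and did not pass the test (adjusted p = 0.126). MRPL44, a protein with a fold like RNase III, had a change of 0.19 ± 0.09 that did not pass the test (adjusted p = 0.0874) and was -0.25 on the deposited scale. MRPL48, a mitochondria-specific protein with dim probes, had 0.07 ± 0.10 (adjusted p = 0.545), and -0.36 on the deposited scale.

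MRPL52 and MRPL36 were the genes that fell. MRPL52 is a mitochondria-specific protein of the large subunit. Its signal was 1.23, 1.39 and 1.97 in high gain cows at ad libitum feeding and 1.60, 1.90 and 2.74 at restriction, and 1.20, 1.73 and 1.89 in low gain cows at ad libitum feeding and 1.5, 1.95 and 2.44 at restriction. The groups overlapped, but each of the 12 cows was lower at ad libitum feeding, with changes between -0.77 (H2) and -0.12 (L1). The change was -0.42 ± 0.08 (adjusted p = 2.69e-04), a signal of 0.745 times that at restriction.

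MRPL36 is the counterpart of L36, the smallest protein of the bacterial large subunit. Its signal was 2.82, 3.11 and 3.49 in high gain cows at ad libitum feeding and 3.22, 3.54 and 3.75 at restriction, and 2.73, 3.05 and 3.44 in low gain cows at ad libitum feeding and 3.11, 3.51 and 3.71 at restriction. It was higher at ad libitum feeding in 1 of 12 cows, L2. It fell by 0.36 ± 0.10 over all cows (adjusted p = 0.0070), but within high gain cows (-0.33, adjusted p = 0.0726) and within low gain cows (-0.39, adjusted p = 0.0865) it did not pass the test.

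The next lowest changes did not pass the test over all cows with centred arrays, although those of MRPL39, MRPL1 and MRPL23 did pass as lower on the deposited scale (-0.69, -0.65 and -0.55, adjusted p = 0.00164, 2.6e-05 and 1.27e-04). MRPL39, related in fold to threonyl-tRNA synthetase, had -0.26 ± 0.17, and its restriction values spread widely, between 1.51 and 3.24 in high gain cows and between 1.07 and 2.88 in low gain cows, whereas its ad libitum values stayed between 1.53 and 2.10. MRPL1, of the mobile L1 stalk, had -0.22 ± 0.10 (adjusted p = 0.0813), and passed as lower when arrays were centred on equally bright clusters (-0.29, adjusted p = 0.0213), after quantile normalization (-0.28, adjusted p = 0.0224) and with array weights (-0.24, adjusted p = 0.043). MRPL23, at the exit of the peptide tunnel, had -0.12 ± 0.10 (adjusted p = 0.304) in its brighter row, with a mean log2 signal of 9.89 on the deposited scale, but its other row, with a mean of 7.38, rose by 0.96 ± 0.14 (adjusted p = 5.41e-05). The rows of MRPL23 therefore disagreed, and the gene has no single value here.

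In the small subunit, MRPS36 had the largest change of all 77 genes. In high gain cows its signal was 5.85, 6.46 and 6.99 at ad libitum feeding and 3.67, 3.97 and 4.20 at restriction. In low gain cows it was 5.41, 6.27 and 7.06 at ad libitum feeding and 3.84, 4.24 and 4.69 at restriction. The diets were far apart in both gain groups, and only L1, with a change of 0.72, moved by less than 1.75. The change over all cows was 2.29 ± 0.19, a 4.90-fold higher signal, adjusted p = 2.12e-07. As its product belongs to oxoglutarate dehydrogenase, it is listed with the ribosomal proteins by its symbol alone, and without it 53 genes rose and 2 fell.

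MRPS33, a mitochondria-specific protein of the small subunit, followed. Its signal was 3.28, 3.94 and 5.0 in high gain cows at ad libitum feeding and 2.12, 2.41 and 3.13 at restriction, and 3.46, 3.88 and 4.56 in low gain cows at ad libitum feeding and 2.13, 2.79 and 3.06 at restriction. Neither gain group had an overlap between diets. The change was 1.36 ± 0.15 (adjusted p = 3.95e-06).

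MRPS10, with the brightest probes of the set (mean log2 signal 14.87 on the deposited scale), rose by 0.92 ± 0.09, also without overlap between diets in either gain group. MRPS12, a protein of the decoding centre, rose by 0.83 ± 0.11. MRPS22, in which variants cause mitochondrial disease in humans, rose by 0.42 ± 0.08, a change that was -0.01 on the deposited scale. MRPS2, the counterpart of bacterial S2, rose by 0.49 ± 0.13 (0.06 on the deposited scale). MRPS17, with dim probes, had -0.02 ± 0.16 in its brighter row, and -0.45 on the deposited scale (adjusted p = 0.0194).

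Mammals have 3 paralogs of bacterial S18. MRPS18B, of the small subunit, rose by 0.71 ± 0.13 (adjusted p = 3.00e-04), but the change of 0.27 on the deposited scale did not pass the test (adjusted p = 0.0609). MRPS18A, of the large subunit by structure, rose by 0.37 ± 0.08 (adjusted p = 0.00135), a change that was -0.07 on the deposited scale. MRPS18C, the form at the usual place of S18 in the small subunit, had a change of -0.18 ± 0.10 (adjusted p = 0.136), which passed as lower on the deposited scale (-0.61, adjusted p = 4.98e-05) and after quantile normalization (-0.31, adjusted p = 0.0216). Its signal was 2.24 to 3.30 at ad libitum feeding and 2.33 to 3.33 at restriction in high gain cows, and 2.52 to 2.94 at ad libitum feeding and 2.64 to 3.21 at restriction in low gain cows. The difference between these changes was not tested.

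**Figure D3:**
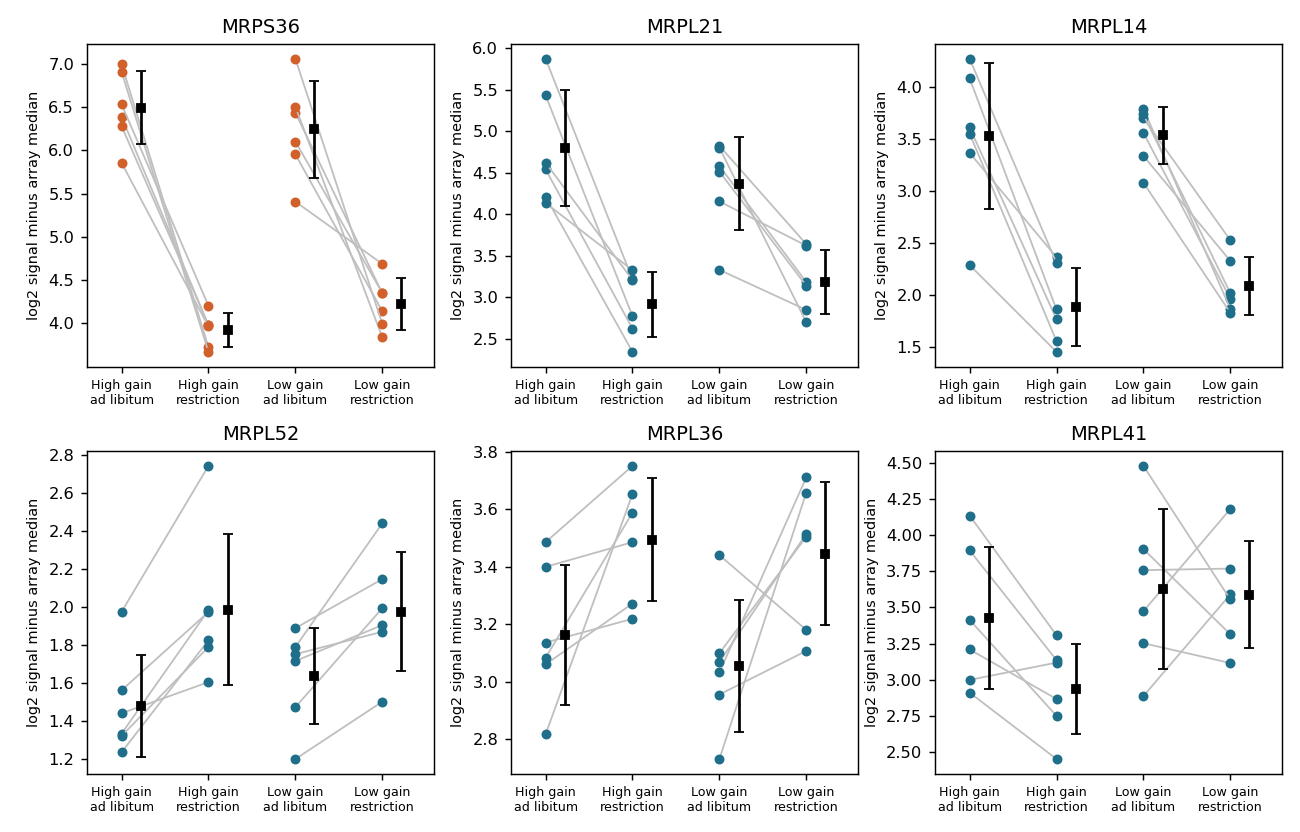
Log2 signal minus array median of 6 genes in each biopsy, with lines joining the biopsies of a cow and black squares with bars for the group mean and SD (n = 6). MRPS36, MRPL21 and MRPL14 were higher at ad libitum feeding in 12 of 12 cows, MRPL52 was lower in 12 of 12 and MRPL36 in 11 of 12, and MRPL41 was higher in 8 of 12. Each panel has its own vertical range.

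Symbols numbered up to MRPL36 and up to MRPS21 mostly follow the names of bacterial ribosomal proteins, and higher numbers mostly mark proteins particular to mitochondria. This grouping was chosen after the values were seen and is given with no test. Among large subunit genes up to 36, 19 of 27 rose and 1 fell (median change 0.69), and among those above 36, 13 of 21 rose and 1 fell (median 0.36). Among small subunit genes up to 21, 14 of 16 rose (median 0.67), and among those above 21, 8 of 13 rose (median 0.51). These counts are with centred arrays, where 27.1% of all clusters rose and 24.4% fell. The grouping was not read on the deposited scale.

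The comparison was also made within each gain group. In high gain cows, 49 of 77 genes rose, 1 fell and 27 did not pass the test, against 18.8% of all clusters that rose and 16.5% that fell. The median change was 0.54, with extremes of -0.51 and 2.57. On the deposited scale 23 rose and 11 fell (7.36% and 53.1% of all clusters), with a median of 0.13. In 23 genes every high gain cow at ad libitum feeding lay above every high gain cow at restriction, against 9.38% of all clusters, and no gene had the opposite separation, against 7% of all clusters.

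In low gain cows, 46 genes rose, 1 fell and 30 did not pass the test, against 18.6% and 13.1% of all clusters. The median change was 0.51, with extremes of -0.39 and 2.02. On the deposited scale 24 rose and 9 fell (6.28% and 54.3% of all clusters), with a median of 0.06. In 25 genes the diets did not overlap with ad libitum feeding above, against 8.99% of all clusters, and in none with it below, against 6.05%. The 2 gain groups shared 15 of these separated genes, against 4.82% of all clusters separated in both. MRPL52 was the gene that fell in each gain group, by 0.51 ± 0.11 in high gain cows (adjusted p = 0.00863) and by 0.34 ± 0.12 in low gain cows (adjusted p = 0.0490). The call in low gain cows was lost when L1, L3, L4, L5 or L6 was left out, which left 0 genes that fell.

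At the thresholds of the study's methods (unadjusted p under 0.05 and a fold over 2), applied here on the deposited scale without pairing, 4 genes changed in high gain cows, MRPL14, MRPL21, MRPS33 and MRPS36, against 11.8% of all clusters. MRPS36 alone did so in low gain cows, against 9.87% of all clusters. All of these were higher at ad libitum feeding. In both gain groups the share of the 77 genes that changed was below that of all clusters. MRPS36 is not known as a ribosomal protein.

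Of the genes that rose, 40 did so in both gain groups, which was 81.6% of the 49 in high gain cows and 87% of the 46 in low gain cows. Of all clusters 12.9% rose in both gain groups, which was 68.5% of those that rose in high gain cows and 69.3% of those that rose in low gain cows. A further 9 passed the test in high gain cows alone and 6 in low gain cows alone. The change was positive in both gain groups in 68 genes and negative in both in 6. Across the 77 genes the changes of the gain groups correlated at 0.92 (Pearson) and 0.91 (Spearman), given as a description, since genes share arrays and are not independent.

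**Figure D4:**
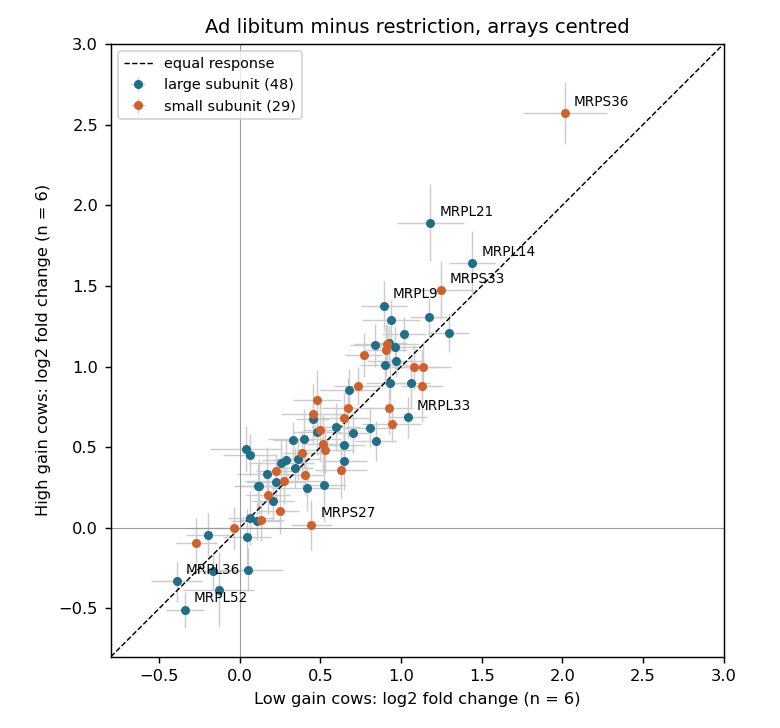
Log2 change of each gene, ad libitum minus restriction with arrays centred, in high gain cows (vertical axis) against low gain cows (horizontal axis), with bars for the standard error (n = 6 cows each). Points follow the dashed line of equal change, and 47 of 77 lie above it.

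Whether the changes themselves differed between the gain groups was tested directly. No gene passed the test, against 0.02% of all clusters, and none did under any other setting tried. At an unadjusted p under 0.05, 1 gene had a larger change in high gain cows, against 3.74% of all clusters, and none a smaller one, against 5.53%. The median of this difference, high gain minus low gain, was 0.06, and it ran from -0.43 to 0.71. The smallest p belonged to MRPL9, a counterpart of bacterial L9, which changed by 1.38 ± 0.16 in high gain cows and by 0.89 ± 0.14 in low gain cows, a difference of 0.48 with a 95% interval of 0.02 to 0.94 (adjusted p = 0.516).

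MRPL21 had the largest difference, 0.71 with an interval of -0.02 to 1.44, from 1.89 ± 0.24 in high gain and 1.18 ± 0.21 in low gain cows. MRPL33 and MRPS27 had differences of the opposite sign. MRPL33 changed by 0.69 ± 0.13 in high gain and by 1.04 ± 0.12 in low gain cows, a difference of -0.36 (interval -0.72 to 0.00). MRPS27, a protein of the pentatricopeptide repeat family, changed by 0.02 ± 0.16 in high gain and by 0.44 ± 0.13 in low gain cows, a difference of -0.43 (interval -0.86 to 0.01). These intervals leave room for differences as large as many of the changes themselves.

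**Figure D5:**
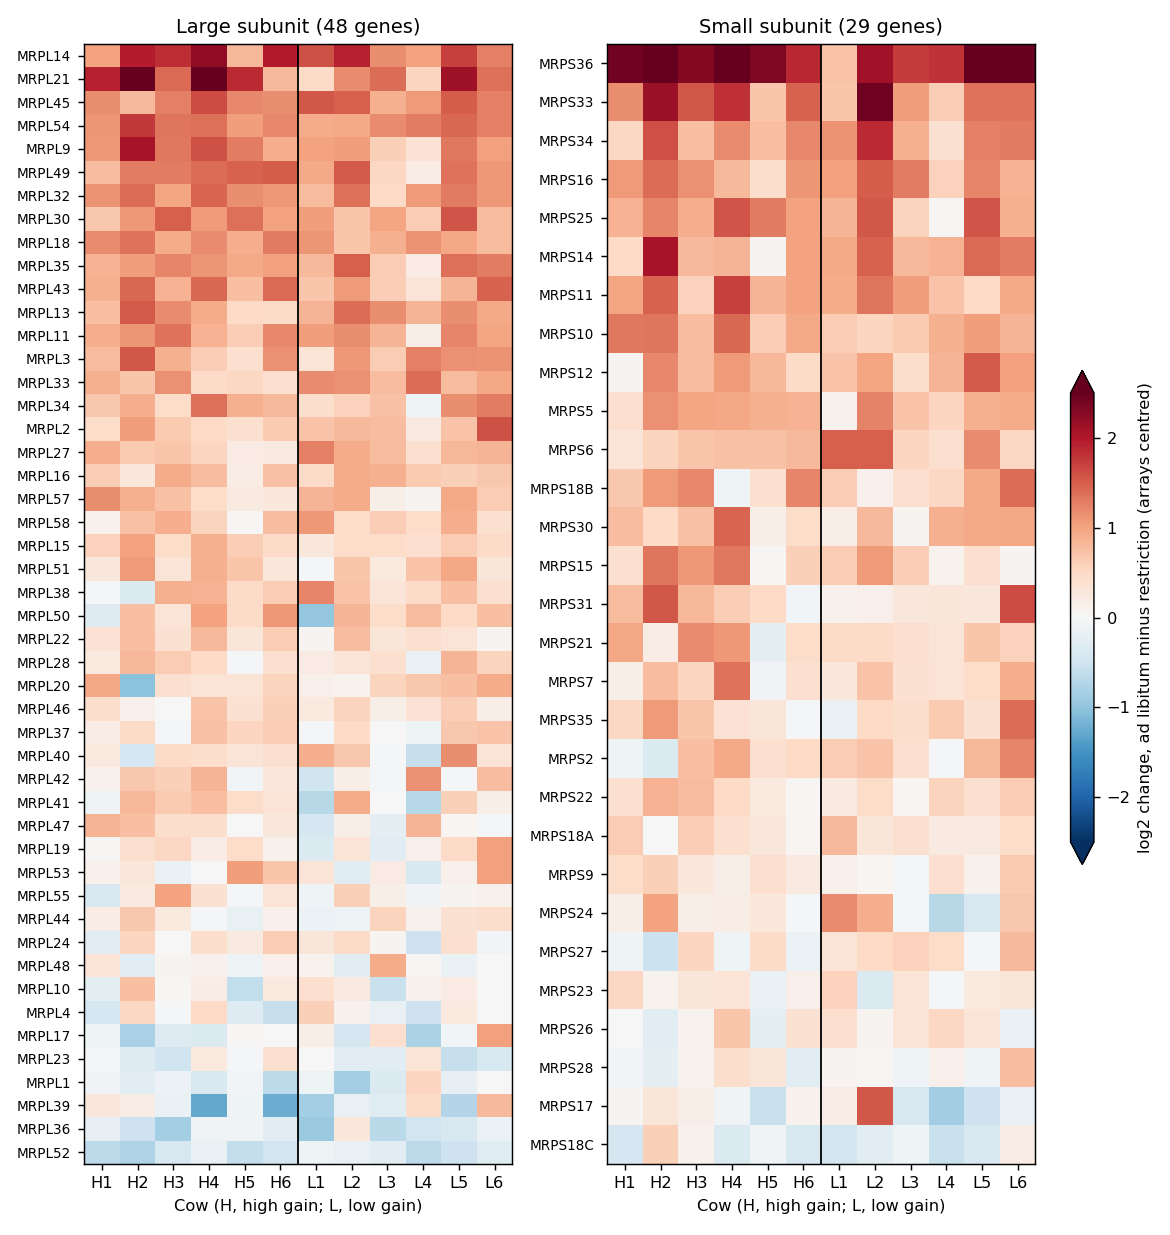
Log2 change of each gene (rows, ordered by the change over all cows) in each cow (columns, high gain left and low gain right), ad libitum minus restriction with arrays centred, red for higher at ad libitum feeding and blue for lower, with colours capped at 2.5 in either direction. The uppermost rows are red in every cow and MRPL52 is blue in all 12, whereas rows such as MRPL17, MRPL39 and MRPS17 change sign among cows.

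The high and low gain groups were then compared within each diet, between different cows and thus without pairing. At ad libitum feeding no gene passed the test (0% of all clusters did). At an unadjusted p under 0.05, 1 gene was higher and 7 were lower in high gain cows, against 2.63% and 4.62% of all clusters. The median difference was -0.01, with extremes of -0.54 and 0.44. No gene had groups that did not overlap, against 0.128% of all clusters with high gain above and 0.236% with it below.

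The smallest p at ad libitum feeding was that of MRPL53, a mitochondria-specific protein of the large subunit. Its signal was 2.06, 2.39 and 2.56 in high gain cows and 2.47, 2.78 and 2.91 in low gain cows, which overlapped, and the difference was -0.41 ± 0.11 (adjusted p = 0.484). MRPL40 differed by -0.54 ± 0.17, MRPL27, whose bacterial counterpart reaches into the catalytic centre, by -0.45 ± 0.15, and MRPS6 by -0.43 ± 0.15, with adjusted p of 0.552, 0.558 and 0.591. The single gene that was higher, MRPL47, named here after its values were seen, differed by 0.34 ± 0.14 (adjusted p = 0.656).

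At restriction no gene passed the test either (0% of all clusters). At an unadjusted p under 0.05, none was higher and 5 were lower in high gain cows, against 4.92% and 4.3% of all clusters. The median difference was -0.05, with extremes of -0.65 and 0.24, and again no gene had groups without overlap, against 0.256% of all clusters with high gain above and 0.204% with it below. MRPL41, a mitochondria-specific protein of the large subunit, had the smallest p. Its signal was 2.45, 2.99 and 3.31 in high gain cows and 3.11, 3.57 and 4.18 in low gain cows, and the difference was -0.65 ± 0.19 with a 95% interval of -1.05 to -0.25 (adjusted p = 0.428).

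With diet, MRPL41 rose by 0.49 ± 0.14 in high gain cows with centred arrays (adjusted p = 0.0259), but had 0.08 there on the deposited scale (adjusted p = 0.652). It had a change of 0.04 ± 0.22 in low gain cows (adjusted p = 0.912), or -0.41 on the deposited scale, and the difference of 0.45 (interval -0.15 to 1.05) did not pass the test (adjusted p = 0.659). MRPL4, MRPL53, MRPL51 and MRPS10 were the other genes with an unadjusted p under 0.05 at restriction, with differences of -0.35, -0.58, -0.27 and -0.31.

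The genes that act with the ribosome were read from lists of names, each by its brightest row. Over all cows 27.1% of all clusters rose and 24.4% fell, and on the deposited scale 8.91% rose and 65.2% fell. Of 5 ribosomal proteins whose symbols do not start with MRP, all rose over all cows, among them DAP3, a GTP-binding protein of the small subunit, by 0.73 ± 0.09, CHCHD1 by 0.60 ± 0.11 and PTCD3, which lies at the entry of the mRNA, by 0.36 ± 0.09 (-0.07 on the deposited scale). Their median change was 0.36, beside 0.53 for the 77 genes, and on the deposited scale it was -0.07, with 1 of the 5 rising and none falling.

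Of 13 translation factors, 8 rose and none fell, against 27.1% and 24.4% of all clusters, with a median of 0.40. On the deposited scale 4 rose and 4 fell (median -0.03), against 8.91% and 65.2% of all clusters. Elongation factor GFM1 rose by 1.16 ± 0.10, TUFM, which brings aminoacyl-tRNA to the ribosome, by 0.93 ± 0.12, and OXA1L, which inserts new proteins into the inner membrane, by 1.15 ± 0.13. Of 15 mitochondrial aminoacyl-tRNA synthetases, which charge tRNA with amino acids, 9 rose and none fell (median 0.32), and 5 rose and 7 fell on the deposited scale (median -0.12). The tyrosine enzyme YARS2 rose by 1.46 ± 0.10, IARS2 by 0.88 ± 0.10 and LARS2 by 0.72 ± 0.07.

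Assembly factors and enzymes that modify mitochondrial ribosomal RNA moved less. Of 20, 6 rose and 2 fell, with a median of 0.14, against 27.1% of all clusters that rose and 24.4% that fell. The share that rose was thus near that of all clusters. ERAL1, a chaperone of the small subunit RNA, rose by 0.96 ± 0.10 and DDX28, a helicase, by 0.27 ± 0.08, whereas DHX30, another helicase, fell by 0.33 ± 0.07. On the deposited scale 1 of the 20 rose and 14 fell, near the 65.2% of all clusters that fell, with a median of -0.29. DDX28 had -0.16 there.

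Of 20 genes for replication and transcription of mitochondrial DNA, RNA stability and their nuclear regulators, 8 rose and 3 fell (median 0.17). On the deposited scale 6 rose and 11 fell (median -0.26). Over all clusters 27.1% rose and 24.4% fell, and 8.91% and 65.2% on the deposited scale. SLIRP and LRPPRC, which stabilize mitochondrial mRNA, rose by 1.27 ± 0.11 and 0.68 ± 0.10, and SSBP1, which binds single-stranded DNA, rose by 1.13 ± 0.10. NRF1, a transcription factor of nuclear genes for mitochondrial proteins, fell by 1.20 ± 0.09 (adjusted p = 1.30e-07), and by 1.64 on the deposited scale. TFAM, which packages mitochondrial DNA, had 0.13 ± 0.10, the polymerase POLRMT 0.08 ± 0.11 and the coactivator PPARGC1A 0.27 ± 0.15, and none of these 3 passed the test over all cows (adjusted p = 0.286, 0.542 and 0.140), with negative values of -0.30, -0.35 and -0.16 on the deposited scale. Within low gain cows PPARGC1A rose by 0.40 ± 0.12 with centred arrays (adjusted p = 0.0318), but had -0.05 on the deposited scale. Subunits encoded by mitochondrial DNA were not analysed here, as no row was matched to their symbols.

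The nuclear-encoded components of the respiratory complexes and ATP synthase changed by more than the ribosomal proteins. Of 83 genes, 78 rose and 1 fell, with a median of 1.66 beside 0.53, and 73 rose and 3 fell on the deposited scale. Over all clusters 27.1% rose and 24.4% fell, and 8.91% and 65.2% on the deposited scale. SDHD, an anchor subunit of complex II, rose by 2.44 ± 0.11, NDUFA13 of complex I by 2.65 ± 0.15 and ATP5IF1, an inhibitor of ATP synthase, by 2.08 ± 0.12. Of 65 cytosolic ribosomal proteins, 40 rose and 5 fell, with a median of 0.50, close to that of the mitochondrial ones, and on the deposited scale 18 rose and 12 fell, with a median of 0.07 beside 0.10. These medians are descriptions, and no test compared the lists.

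By cow, the largest mean changes of the mitochondrial ribosomal proteins were in H2 (0.76), H4 (0.75), L6 (0.73) and L2 (0.69), in which the respiratory components changed by 2.20, 2.03, 1.95 and 2.04. The smallest were in L4 (0.34) and L3 (0.42), with 0.58 and 1.11 for the respiratory components. Next came H5 (0.43) and L1 (0.45), with 1.57 and 1.08, so the cows did not keep the same order in both. Both means are centred on the same array medians. At restriction the respiratory components differed by a median of -0.37, high gain minus low gain, beside -0.05 for the ribosomal proteins. At an unadjusted p under 0.05, 25 of 83 were lower, against 5 of the 77 ribosomal protein genes and 4.3% of all clusters. No respiratory component passed the test.

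Markers of adipocytes and of fibroblasts and progenitors rose with ad libitum feeding in larger shares than all clusters. Over all clusters 27.1% rose and 24.4% fell, and 8.91% and 65.2% on the deposited scale. Of 12 adipocyte markers, 10 rose and 1 fell over all cows (median change 0.66; 6 rose and 2 fell on the deposited scale, median 0.23), and their mean lay between 7.70 and 8.52 at ad libitum feeding and between 7.03 and 7.66 at restriction in high gain cows, and between 8.20 and 8.66 and between 7.28 and 7.92 at the same diets in low gain cows. Of 11 markers of fibroblasts and adipocyte progenitors, 8 rose (median 1.05; 7 rose on the deposited scale, median 0.62), and their mean lay between 6.69 and 8.09 at ad libitum feeding and between 5.43 and 6.75 at restriction in high gain cows, and between 6.11 and 7.93 and between 4.59 and 6.01 at the same diets in low gain cows.

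Of 13 macrophage markers 4 rose, and of 12 endothelial markers 3 rose and 4 fell. Of 9 lymphocyte markers 4 fell, and of 10 skeletal muscle markers 1 rose. Over all clusters 27.1% rose and 24.4% fell, so the macrophage and endothelial rises lay near the common share. Without centring 3 of the macrophage markers rose and 6 fell, no endothelial marker rose and 7 fell, and 6 lymphocyte and 2 muscle markers fell. Over all clusters 8.91% rose and 65.2% fell there, and the falls of these lists lay near or below that share. Means of muscle markers lay between -1.09 and 1.14 around the array median. With centred arrays the endothelial markers split by gain group, with 3 of 12 falling and none rising in high gain cows (mean of 3.16 to 3.56 at ad libitum feeding and 3.49 to 4.05 at restriction) and 5 rising and 1 falling in low gain cows (3.53 to 4.08 and 3.09 to 3.79), although none of the 12 differences passed the test. The deposited scale gave 8 falling and none rising in high gain cows, and 2 rising and 3 falling in low gain cows. Over all clusters 16.5% fell in high gain cows and 18.6% rose in low gain cows with centred arrays. On the deposited scale these shares were 53.1% and 6.28%. The part of these markers in the changes of the ribosomal proteins was not tested.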

How the data were processed

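The deposited table holds a log2 signal per transcript cluster for each of 24 Bovine 1.1ST arrays. Per the labels and the methods, the authors ran Affymetrix Expression Console, correcting probes for GC content, stretching the signal (SST) and summarizing by RMA. Versions, and whether both diets were normalized together, are not given in the sources used here. The table holds 26773 clusters. Of these, 1776 with low identifiers and no name were left out and 24997 tested, of which 18790 carry 1 gene symbol, 385 several and 5822 none, by the platform annotation. Arrays were centred on their medians. Diets were compared in limma (version 3.58.1, R version 4.3.3) by lmFit and eBayes, two-sided, with the cow as a block, and gain groups were compared on the 12 arrays of a diet. The response difference was a diet by gain term. All 24997 p-values of a comparison were adjusted together (Benjamini-Hochberg). The study's tables name an analysis of variance, and whether it was paired is not given in the sources used here. An unpaired one-way form on the deposited scale was run as an alternative.

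The number of the cow in the sample titles pairs its 2 arrays. Deviations from the group means correlated at a median of 0.185 (0.101 to 0.339) between arrays of a cow in high gain and 0.102 (0.029 to 0.294) in low gain cows, and at -0.051 and -0.025 between different cows. The diet of each biopsy was read from its number in the titles and the order of sampling in the labels. With 6 arrays per group and no technical repeat, precision is limited by the number of arrays.

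The genes and lists were chosen with earlier results of these data known. Named with values were the 6 highest and 6 lowest changes in the fit of 12 cows, for the gain comparisons and the response difference the 4 genes of lowest p, the 3 brightest and 3 dimmest, members of special role, and, from each other list, the 3 smallest p and a few fixed names. Signals of different probes do not rank amounts of different genes. Alternatives were other scalings, a filter on dim clusters, other priors and weights, no block, the mean of all rows, other subunit assignments and each cow left out. Genome coordinates and sequences were not used here.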

Additional observations from a re-analysis of the deposited data

Results flagged for a closer look

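The 4 groups of 6 cows were checked for 34 genes named by rule and for 3 averages, 148 sets of values in all. In 9 of them 1 cow stood apart from the other 5 past the critical value of Dixon, which chance gives in about 1 in 20. All values are log2 signal minus the array median. Cow H2 accounted for 4 of the 9. It had 2.74 for MRPL52 at restriction (other high gain cows 1.60 to 1.98), 2.51 for MRPS2 at restriction (others 0.74 to 1.33), 3.22 for MRPS22 at restriction (others 2.67 to 2.78) and -0.25 for MRPL48 at ad libitum feeding (others -0.78 to -0.61). H4 had 8.0 for MRPS10 at ad libitum feeding, against 6.84 to 7.24 in the other high gain cows. H5 had 1.74 for MRPL51 at restriction, against 2.15 to 2.32. Among low gain cows, L6 had 1.57 for MRPL27 at ad libitum feeding (others 1.99 to 2.19) and 2.64 for MRPS18C at restriction (others 3.05 to 3.21), and L5 had 2.22 for MRPS18B at ad libitum feeding (others 1.5 to 1.76).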

How the results depend on the processing

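Counts are given as genes that rose and genes that fell, ad libitum over restriction. Shares of all clusters stand above for the paired fits on centred arrays and on the deposited scale. For the other settings of this section, also with cows left out, such shares are not given. Those counts therefore do not show whether all clusters moved alike. The deposited scale, without centring, gave 23 and 11 in high gain cows, 24 and 9 in low gain cows and 30 and 17 over all cows, since it keeps the difference of the array medians. An unmoderated one-way test on the deposited scale without pairing gave 20 and 4, 19 and 8, and 28 and 13. Quantile normalization gave 2, 3 and 4 genes that fell in high gain, low gain and all cows. In low gain cows, where 1 gene fell, 2 fell after centring on clusters as bright as the members and 0 fell without dim clusters or with a trended and robust prior. The cause was not tested. Without the replicate block, 42 rose and 1 fell in high gain cows, 44 and 1 in low gain cows and 51 and 2 over all cows, so that the paired fit changed no count by over 1.5 times, though MRPL40 no longer passed (adjusted p = 0.0746).

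With 1 cow left out, 39 to 45 genes rose and 1 fell in high gain cows, 38 to 43 rose and 0 to 1 fell in low gain cows, and 51 to 56 rose and 2 to 3 fell over all cows. The large minus small median was -0.17 (without H6) to -0.01 (without H1). Comparisons of gain groups and the response difference had 0 genes passing under every alternative run. On the deposited scale the change over all cows turned negative in 23 of the 68 genes with a positive one. Among the genes named by rule it turned, under both tests, to -0.10 in MRPL40, -0.36 in MRPL48, -0.07 in MRPS18A, -0.25 in MRPL44 and -0.01 in MRPS22, which follows from the shift of 0.43. The calls of MRPL15, MRPL51, MRPL58, MRPS2 and MRPS18B as higher were lost there, and MRPL1, MRPL4, MRPL23, MRPL39, MRPS17 and MRPS18C passed as lower. The mean of both rows turned MRPL23 to 0.42 (adjusted p = 0.00304). MRPL40 is a borderline call, with 0.33 and adjusted p = 0.0494. It passed without H2, L3 or L4 and missed without any of the other 9 cows. MRPL41 passed without L1 or L4 (0.35 each), MRPL1 without L4 (-0.29), MRPS18C without H2 (-0.25) and MRPS27 without H2 (0.30).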

Other observations

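The row shared by MRPL12, which helps the mitochondrial RNA polymerase as well as sitting in the large subunit, and SLC25A10, a dicarboxylate carrier, cannot be given to either gene. Its log2 signal minus the array median was 0.43 ± 0.41 at ad libitum feeding and 0.45 ± 0.23 at restriction in high gain cows, and 0.26 ± 0.38 at ad libitum feeding and 0.41 ± 0.36 at restriction in low gain cows (SD, n = 6 each), and the diets overlapped in both gain groups. The dimmer row of MRPS17 had a change of 0.30 ± 0.13 over all cows (adjusted p = 0.0722), beside -0.02 ± 0.16 in its brighter row.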
